A study of Mus musculus with 6 samples.

Results

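The genes described here are 32 genes of glucose uptake, glycolysis, lactate and pyruvate handling and the tricarboxylic acid (TCA) cycle. They were taken by gene name from a table of 36976 genes, and each name matched 1 row. RNA-Seq was performed on long-term chronic myelogenous leukaemia (LT-CML) stem cells, sorted from mouse bone marrow as CD150+ CD48- CD135- cells without lineage markers and with Sca-1 and cKit. Both groups were tet-CML mice on C57BL/6, which carried SCL-tTA, a transactivator driven by an Scl enhancer, and a TRE-BCR-ABL1 transgene that it switches on once doxycycline is withdrawn. Cells were taken 5 weeks after that induction. The *Gdpd3*+/+ group (replicates 1, 2 and 3) was made from 22 male and 12 female mice. The *Gdpd3*-/- group (replicates 5, 6 and 7) was made from 5 male and 5 female mice, whose *Gdpd3*, a lysophospholipase D gene, carried a small edited deletion early in its coding sequence. The study calls the libraries of a genotype biologically independent samples. How the animals were divided among them is not stated, and p-values measure the spread between these pools.

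Glycolysis splits glucose into pyruvate and yields a little ATP without oxygen. Pyruvate is then either reduced to lactate by lactate dehydrogenase or taken into the mitochondrion, where the pyruvate dehydrogenase complex turns it into acetyl-CoA for the TCA cycle. Pyruvate dehydrogenase kinases switch that complex off. Quiescent haematopoietic stem cells are known to lean on glycolysis, and most steps of the pathway are served by isozymes that differ between tissues, with muscle, liver, brain and myeloid forms.

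Values are FPKM, fragments per kilobase of gene relative to the total assigned to the genes of the table, so levels of different genes can be set side by side. They are listed for replicates 1, 2 and 3 and for replicates 5, 6 and 7 in that order. Depth on genes, inferred from the table, was 4.98 to 6.28 gigabases in *Gdpd3*+/+ and 2.13 to 3.64 gigabases in *Gdpd3*-/- libraries. *Gdpd3* itself had 2.95 to 7.30 FPKM in *Gdpd3*+/+ and 0.0129 to 0.681 FPKM in *Gdpd3*-/- libraries. All 10 markers of LT stem cells were detected in every library, and *Cd34* was the 1 called higher in *Gdpd3*-/-. Of the markers used to sort cells out, *Flt3*, which encodes CD135, was called higher, with 9.80 to 11.0 FPKM in *Gdpd3*+/+ and 36.8 to 46.5 FPKM in *Gdpd3*-/- libraries. Markers of other cell types were also detected. The summed level of 18 skeletal muscle markers was 1032 to 1531 FPKM in *Gdpd3*+/+ libraries and 13106, 18864 and 2500 FPKM in *Gdpd3*-/- replicates 5, 6 and 7, and none of the 18 was at 0. In limma's test across all genes none of the 18 was called and 18 had an unadjusted p under 0.05, and without *Gdpd3*-/- replicate 7 all 18 were called higher. Of the 18, 3 (*Eno3*, *Pygm* and *Pgam2*) are themselves genes of glycolysis or glycogen breakdown. The sum of 11 neutrophil markers was 29732 to 32540 FPKM in *Gdpd3*+/+ and 8382 to 13795 FPKM in *Gdpd3*-/- libraries. None of those was at 0 either, and 5 of the 11 were called lower, or 9 without replicate 7.

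No gene of the 32 was called between the genotypes. The call was an adjusted p under 0.05 in limma's moderated test on log2(FPKM + 0.1), with Benjamini-Hochberg adjustment over 24689 genes. Of all genes 1.71% were called, 1.09% higher and 0.616% lower. At an unadjusted p under 0.05 there were 18 of the 32 genes, 14 higher and 4 lower in *Gdpd3*-/-, where 22.2% of all genes passed, 16.5% higher and 5.76% lower. Every *Gdpd3*-/- library lay above every *Gdpd3*+/+ library for 16 genes, as it did for 23.5% of all genes, and below for 5 genes, as for 8.27% of all genes. The remaining 11 genes overlapped. For each of the 21 genes without overlap, the two-sided exact permutation test of the means gave p = 0.1, the smallest that 3 libraries against 3 can reach. The median log2 fold change was 0.23 over the 32 genes and 0.24 over all genes tested, with 19 of the 32 above 0 and 13 below. In bulk libraries of this kind, fewer cells of a type and less RNA per cell cannot be told apart.

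How libraries are scaled moves these counts. The median of all genes, 0.24 in the deposited FPKM, became 0.06 after trimmed-mean (TMM) scaling, −0.01 after quantile normalization and 0.50 in TPM, where each library is brought to the same sum. The median of the 32 genes became 0.04, 0.09 and 0.51 under these scalings. Of the list, 7 genes stayed above every *Gdpd3*+/+ library under all of these scalings, namely *Hk2*, *Pfkm*, *Aldoa*, *Aldoc*, *Tpi1*, *Pdk2* and *Mdh1*. *Hk3* was the 1 gene that stayed below. In the plot of fold changes these 7 genes lie above, and *Hk3* lies below, the median of all genes. The genes of the list above every *Gdpd3*+/+ library numbered 7 with TMM scaling, 11 with quantile normalization and 20 in TPM, next to 15.3%, 13.6% and 36.1% of all genes. Those below numbered 9, 7 and 1, next to 14.5%, 15.5% and 3.85% of all genes. In TPM 14 of the 32 were called higher, where 15.0% of all genes were. These were the 16 genes above every *Gdpd3*+/+ library in FPKM except *Pfkl* and *Sucla2*.

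**Figure D1:**
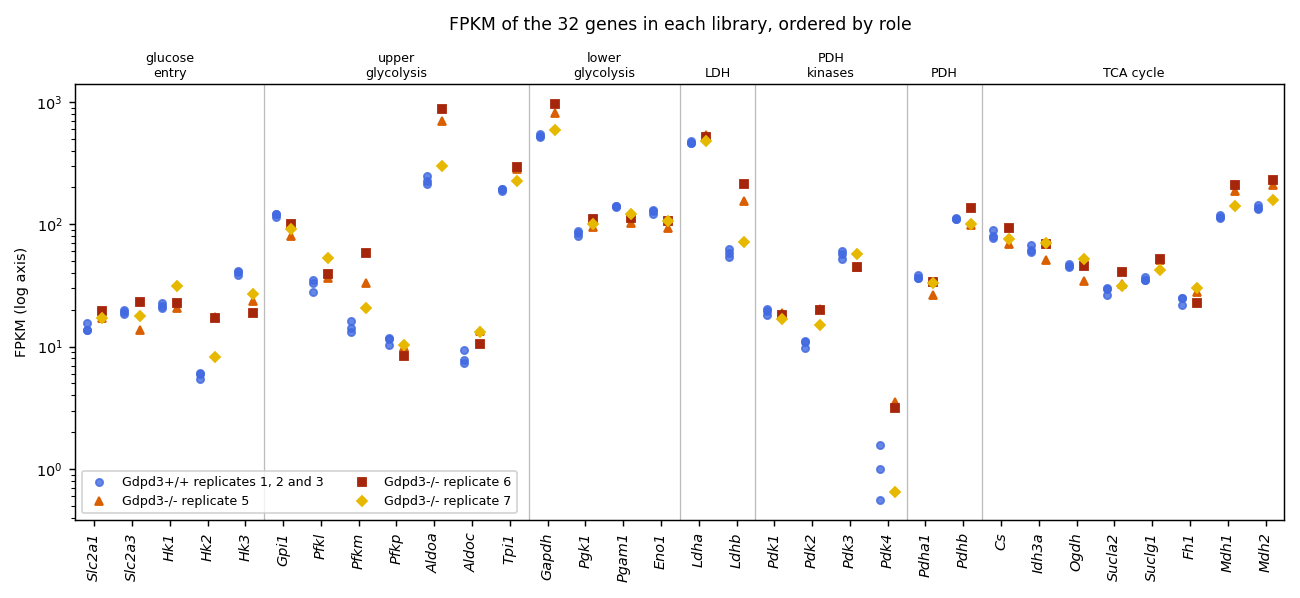
FPKM (log axis) of the 32 genes in each of the 6 libraries, grouped by role along the horizontal axis. Circles are *Gdpd3*+/+ replicates 1, 2 and 3, and triangles, squares and diamonds are *Gdpd3*-/- replicates 5, 6 and 7. In *Gdpd3*-/-, *Aldoa*, *Gapdh*, *Ldhb* and *Pfkm* were highest in replicate 6 and lowest in replicate 7.

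The spread within groups differed. The coefficient of variation of the 32 genes had a median of 4.84% in *Gdpd3*+/+ and 16.0% in *Gdpd3*-/- libraries, and it was larger in *Gdpd3*-/- for 32 of the 32 genes. Over all genes tested the medians were 13.3% and 40.1%. The lowest value among the 32 genes, that of *Pdk4*, still stood for about 38 reads, and depth on genes was lower in every *Gdpd3*-/- library than in every *Gdpd3*+/+ library.

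At the entry of glucose, the most abundant hexokinase of the *Gdpd3*+/+ cells was lower and the least abundant was higher in every *Gdpd3*-/- library. Hexokinases phosphorylate glucose and trap it in the cell. *Hk3* (chr13:55107346-55122746 in mm9), the form found mostly in myeloid cells, had 41.8, 40.6 and 38.4 FPKM in *Gdpd3*+/+ and 23.5, 18.7 and 26.9 FPKM in *Gdpd3*-/- libraries. The *Gdpd3*+/+ mean was 1.75 times the *Gdpd3*-/- mean, and *Hk3* came closest to a call of all 32 genes (log2 fold change −0.82, SE 0.15, adjusted p = 0.0551). It was called lower after TMM scaling (adjusted p = 0.0357, 0.94% of all genes called lower) and after quantile normalization (adjusted p = 0.0400, 0.834% of all genes). The same call was made with a pseudocount of 0.01 (0.77% of all genes), at a mean FPKM of at least 1 (1.34%) and without *Gdpd3*-/- replicate 6 (0.751%). It was not called in TPM (log2 fold change −0.54, adjusted p = 0.0573), with a pseudocount of 1 (0.0632), unfiltered (0.0686), under array weights (0.0764), without an intensity trend (0.147), without *Gdpd3*-/- replicate 5 (0.0911) or without any one *Gdpd3*+/+ library (0.235 to 0.256). The neutrophil markers were lower as well, since 10 of the 11 lay below every *Gdpd3*+/+ library. Their sum was 13795, 8382 and 9400 FPKM in replicates 5, 6 and 7, highest in replicate 5, whereas *Hk3* was highest in replicate 7. The part of these markers in the result was not tested.

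*Hk2* (chr6:82675019-82724448 in mm9), the insulin-responsive form of skeletal muscle and heart, had 5.49, 5.96 and 6.14 FPKM in *Gdpd3*+/+ and 17.4, 17.1 and 8.26 FPKM in *Gdpd3*-/- libraries. Its values in replicates 5 and 6 were close to each other and 2.94 times the *Gdpd3*+/+ mean, and replicate 7 was 1.41 times that mean. The log2 fold change was 1.19 (SE 0.30, adjusted p = 0.0912). *Hk1*, the widely expressed form, had 20.6 to 22.5 FPKM in *Gdpd3*+/+ and 20.8 to 31.3 FPKM in *Gdpd3*-/- libraries, which overlapped, and its log2 fold change of 0.19 turned to −0.0036 after TMM scaling.

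Shares within a family do not depend on a scaling factor applied to a whole library. *Hk3* made up 59.5% ± 1.14 of the summed hexokinase FPKM in *Gdpd3*+/+ and 36.8% ± 4.44 in *Gdpd3*-/- libraries (SD, n = 3 each). The *Hk2* share was 8.68% ± 0.730 against 23.3% ± 9.41, with 28.2, 29.3 and 12.4% in replicates 5, 6 and 7. The *Hk1* share was 31.8% ± 0.711 against 39.9% ± 6.71. None of these 3 shares overlapped (exact permutation test, two-sided, p = 0.1 each, the smallest possible). They add up to the whole in each library and are not separate results, and the FPKM of *Hk1* itself overlapped. The composition of the hexokinases lay outside the *Gdpd3*+/+ range in all 3 *Gdpd3*-/- libraries, replicate 7 included.

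Glucose transporters feed these kinases. *Slc2a1*, which encodes GLUT1, the widely expressed basal transporter, had 13.8, 13.6 and 15.6 FPKM in *Gdpd3*+/+ and 17.0, 19.7 and 17.1 FPKM in *Gdpd3*-/- libraries (log2 fold change 0.32, SE 0.12, adjusted p = 0.194). *Slc2a3*, which encodes the high-affinity transporter GLUT3 and was the more abundant of the pair in *Gdpd3*+/+, had 20.1, 18.6 and 19.1 FPKM against 13.7, 23.4 and 17.6 FPKM and overlapped. Its log2 fold change of −0.11 turned to 0.16 in TPM. The *Slc2a1* share of the pair was 42.6% ± 2.18 in *Gdpd3*+/+ and 50.1% ± 4.92 in *Gdpd3*-/- libraries, again with no overlap (exact permutation test, p = 0.1, n = 3 each).

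The promoters of the hexokinases whose levels differed in opposite directions are given here because both hold the core of the hypoxia response element, ACGTG, to which hypoxia-inducible factors (HIF) bind in known glycolytic targets. Sequences run from 250 bases before to 50 bases after the RefSeq start in GRCm38.p6, in the direction of the gene, and capitals mark ACGTG or its complement CACGT. That of *Hk2* lies at chr6:82774405-82774704, minus strand, with matches starting at bases 25 and 199 of the window, and that of *Hk3* at chr13:55021336-55021635, minus strand, with a match at base 95.
Hk2: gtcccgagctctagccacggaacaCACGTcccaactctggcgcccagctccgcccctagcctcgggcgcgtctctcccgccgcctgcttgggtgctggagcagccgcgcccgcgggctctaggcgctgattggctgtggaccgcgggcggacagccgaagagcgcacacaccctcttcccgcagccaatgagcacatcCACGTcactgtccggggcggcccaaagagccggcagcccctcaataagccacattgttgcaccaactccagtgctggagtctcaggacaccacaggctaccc
Hk3: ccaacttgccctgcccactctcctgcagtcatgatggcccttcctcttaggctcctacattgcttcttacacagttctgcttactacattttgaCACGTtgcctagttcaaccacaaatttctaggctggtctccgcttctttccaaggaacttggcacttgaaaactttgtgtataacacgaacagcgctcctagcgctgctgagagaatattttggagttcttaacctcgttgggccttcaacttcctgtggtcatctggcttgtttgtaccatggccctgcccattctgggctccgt

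Over the 30 genes of the list with an entry, 23 of 47 promoters (48.9%) held ACGTG on either strand. Of all 32851 promoters searched, which did not cover every chromosome, 19.6% did. A gene can have several windows, and some overlap, as for *Ogdh*, so the same site can count more than once. The 23 promoters belonged to 16 genes, among them *Hk1*, *Hk2*, *Hk3*, *Aldoa*, *Aldoc*, *Gapdh*, *Pgk1*, *Pgam1*, *Ldha*, *Pdk2* and *Mdh1*. The longer E-box CACGTG, each copy of which holds ACGTG on both strands, was in 12.8% of the 47 and 7.15% of all searched. The GC box GGGCGG was in 55.3% and 35.7%, and TATAAA in 2.13% and 13.6%. ACGTG holds the pair CG, and promoters of the list were not matched to all promoters by CG content. The higher share of ACGTG is therefore no measure of HIF sites. Genes with the HIF core were found among those above, below and overlapping the *Gdpd3*+/+ libraries. A match is a run of letters and not a bound site.

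**Figure D2:**
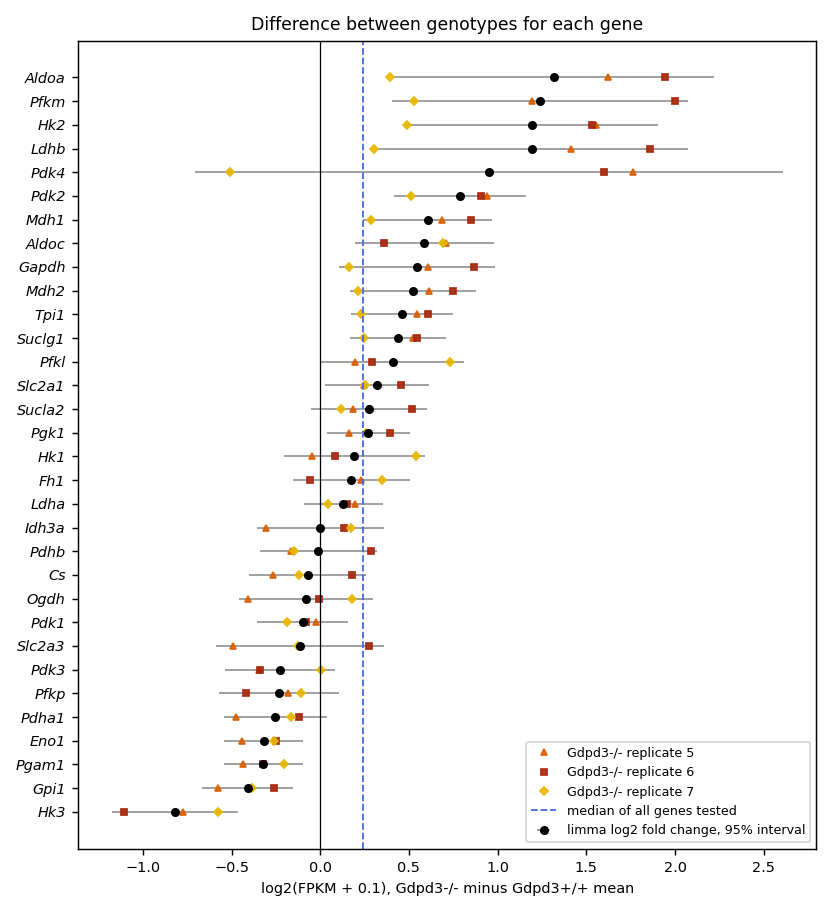
Difference between genotypes on log2(FPKM + 0.1) for each of the 32 genes. Black dots with bars are limma's log2 fold changes with 95% intervals, coloured symbols are the single *Gdpd3*-/- libraries minus the *Gdpd3*+/+ mean, and the dashed line is the median of all genes tested, 0.24. *Aldoa*, *Pfkm*, *Hk2* and *Ldhb* lie highest and *Hk3* lowest, and the sign of 12 genes near 0 changes with TMM, quantile or TPM scaling.

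In the upper part of glycolysis, where glucose is split into triose phosphates, the muscle isozymes *Aldoa* and *Pfkm* had the highest folds, and the values of replicates 5 and 6 were far from that of replicate 7. *Pfkm* (chr15:97923020-97962878 in mm9) encodes the muscle form of phosphofructokinase, the committed and most regulated step. It had 16.1, 14.1 and 13.1 FPKM in *Gdpd3*+/+ libraries. In *Gdpd3*-/- it had 33.0 and 57.8 FPKM in replicates 5 and 6, together 3.15 times the *Gdpd3*+/+ mean, and 20.8 FPKM in replicate 7, 1.44 times that mean. All 3 were above *Gdpd3*+/+, with a log2 fold change of 1.24 (SE 0.35, 95% interval 0.41 to 2.07, adjusted p = 0.110).

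*Aldoa* (chr7:133938748-133944265 in mm9), the aldolase of muscle and most other cells, had 247, 227 and 213 FPKM in *Gdpd3*+/+ libraries. Replicates 5 and 6 had 703 and 879.6 FPKM, 3.45 times the *Gdpd3*+/+ mean, and replicate 7 had 300.4 FPKM, 1.31 times that mean. The log2 fold change over the 3 libraries was 1.32 (SE 0.38, 95% interval 0.42 to 2.22, adjusted p = 0.113). Without replicate 7, both muscle isozymes were called higher (adjusted p = 0.00460 for *Aldoa* and 0.0224 for *Pfkm*), and with replicate 7 as the 1 *Gdpd3*-/- library neither was (adjusted p = 0.140 and 0.145, which assumes that a lone library varies like the other group). The skeletal muscle markers moved with both genes, and their part in the result was not tested.

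The other phosphofructokinases stood apart from this pattern. *Pfkl*, the liver form and the most abundant of the family in *Gdpd3*+/+, had 32.9, 34.8 and 28.0 FPKM against 36.4, 38.9 and 52.9 FPKM (log2 fold change 0.41, SE 0.17, adjusted p = 0.223), and its highest value was in replicate 7. *Pfkp*, the platelet form, had 10.3 to 11.7 FPKM in *Gdpd3*+/+ and 8.35 to 10.4 FPKM in *Gdpd3*-/- libraries, with a log2 fold change of −0.24 that turned to 0.04 in TPM. As a share of the family, *Pfkp* was 19.6% ± 2.46 in *Gdpd3*+/+ and 10.9% ± 2.56 in *Gdpd3*-/- libraries without overlap (exact permutation test, p = 0.1, n = 3 each). The *Pfkm* share was 23.3 to 27.2% in *Gdpd3*+/+ and 41.7, 55.0 and 24.7% in replicates 5, 6 and 7, so replicate 7 fell within the *Gdpd3*+/+ range (exact permutation test, p = 0.3).

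*Aldoc*, the brain aldolase, had 7.82, 9.36 and 7.35 FPKM in *Gdpd3*+/+ and 13.4, 10.5 and 13.2 FPKM in *Gdpd3*-/- libraries (log2 fold change 0.59, SE 0.16, adjusted p = 0.109). Unlike *Aldoa* it was as high in replicate 7 as in replicate 5 and lowest in replicate 6. *Tpi1*, the triose phosphate isomerase, had 193, 196 and 189 FPKM and 281, 293 and 225 FPKM, a log2 fold change of 0.46 (SE 0.12, adjusted p = 0.0971). *Gpi1*, the isomerase that follows hexokinase, went the other way, with 115, 122 and 121 FPKM in *Gdpd3*+/+ and 79.9, 99.7 and 91.3 FPKM in *Gdpd3*-/- libraries (log2 fold change −0.41, SE 0.11, adjusted p = 0.0965). All 3 *Gdpd3*-/- libraries were below *Gdpd3*+/+ for *Gpi1*, but 16.5% of its exon bases overlap an antisense gene, and these libraries carry no strand information.

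The lower part of glycolysis was divided in FPKM, with *Gapdh* and *Pgk1* above and *Pgam1* and *Eno1* below every *Gdpd3*+/+ library. After TMM scaling neither *Gapdh* nor *Pgk1* lay above every *Gdpd3*+/+ library. *Gapdh*, which oxidizes glyceraldehyde phosphate and was the most abundant of the 32 genes, had 522, 543 and 522 FPKM in *Gdpd3*+/+ and 805, 965 and 592 FPKM in *Gdpd3*-/- libraries. Its log2 fold change was 0.55 (SE 0.18, adjusted p = 0.152), and the *Gdpd3*-/- libraries kept the order 6, 5, 7. *Pgk1*, the first ATP-making enzyme of the pathway, had 87.8, 85.3 and 80.4 FPKM and 94.4, 111 and 101 FPKM. Its log2 fold change of 0.27 (SE 0.10, adjusted p = 0.175) lay close to the median of all genes.

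*Pgam1*, the phosphoglycerate mutase of non-muscle tissue, had 141, 137 and 140.3 FPKM in *Gdpd3*+/+ and 103, 112 and 121 FPKM in *Gdpd3*-/- libraries (log2 fold change −0.32, SE 0.09, adjusted p = 0.116). *Eno1*, the ubiquitous enolase, had 121, 129 and 129.8 FPKM and 93.2, 106 and 106 FPKM (log2 fold change −0.32, SE 0.09, adjusted p = 0.118). In FPKM both were lower in all 3 *Gdpd3*-/- libraries. In TPM both overlapped, with a log2 fold change of −0.04 each (adjusted p = 0.792 and 0.793 in limma's test). Their muscle counterparts, *Pgam2* and *Eno3*, are not on the list and were taken as muscle markers. *Pgam2* had 75.4, 48.5 and 53.8 FPKM in *Gdpd3*+/+ and 531, 822 and 108 FPKM in *Gdpd3*-/- libraries. *Eno3* had 49.9, 36.7 and 33.2 FPKM and 398, 557 and 76.0 FPKM. The forms of mutase and enolase known from muscle were thus above *Gdpd3*+/+ in FPKM at the same steps at which the general forms were below.

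*Ldha* made up most lactate dehydrogenase in all libraries, but *Ldhb*, the heart form, had a larger share in every *Gdpd3*-/- library. *Ldha* encodes the subunit that favours lactate formation and had 462, 479 and 462 FPKM in *Gdpd3*+/+ and 536, 519 and 481 FPKM in *Gdpd3*-/- libraries. Its log2 fold change of 0.13 (95% interval −0.09 to 0.35, adjusted p = 0.447) was below the median of all genes and turned to −0.07 after TMM scaling and −0.05 after quantile normalization, while in TPM it was 0.41 and *Ldha* was called higher (adjusted p = 0.0344). *Ldhb* (chr6:142438769-142456477 in mm9), whose subunit favours the return of lactate to pyruvate, had 63.4, 58.3 and 53.9 FPKM against 156, 212 and 72.0 FPKM (log2 fold change 1.19, SE 0.37, adjusted p = 0.131). Replicates 5 and 6 were 3.14 times and replicate 7 1.23 times the *Gdpd3*+/+ mean. The *Ldhb* share of the pair was 10.4 to 12.1% in *Gdpd3*+/+ libraries and 22.5, 29.0 and 13.0% in *Gdpd3*-/- replicates 5, 6 and 7 (exact permutation test, p = 0.1, n = 3 each). It followed the order of the muscle markers over the *Gdpd3*-/- libraries, and their part in it was not tested.

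A promoter of *Ldha* is shown because it holds more matches to the HIF core than any other promoter of the list. RefSeq gives *Ldha* 2 starts in this table. The window of the first, at chr7:46845554-46845853, plus strand in GRCm38.p6, holds ACGTG or its complement 5 times, of which 4 overlap in copies of the E-box CACGTG, and capitals mark these runs. The window of the second, at chr7:46846832-46847131, holds no ACGTG and no GC box, and neither does the single window of *Ldhb*, at chr6:142507908-142508207, minus strand.
Ldha: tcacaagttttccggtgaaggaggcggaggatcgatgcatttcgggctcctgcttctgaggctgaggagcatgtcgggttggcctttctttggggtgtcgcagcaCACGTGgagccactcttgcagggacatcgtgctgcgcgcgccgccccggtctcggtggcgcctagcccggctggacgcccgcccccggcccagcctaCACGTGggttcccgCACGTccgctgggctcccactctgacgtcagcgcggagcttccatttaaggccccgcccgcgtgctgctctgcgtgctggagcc

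**Figure D3:**
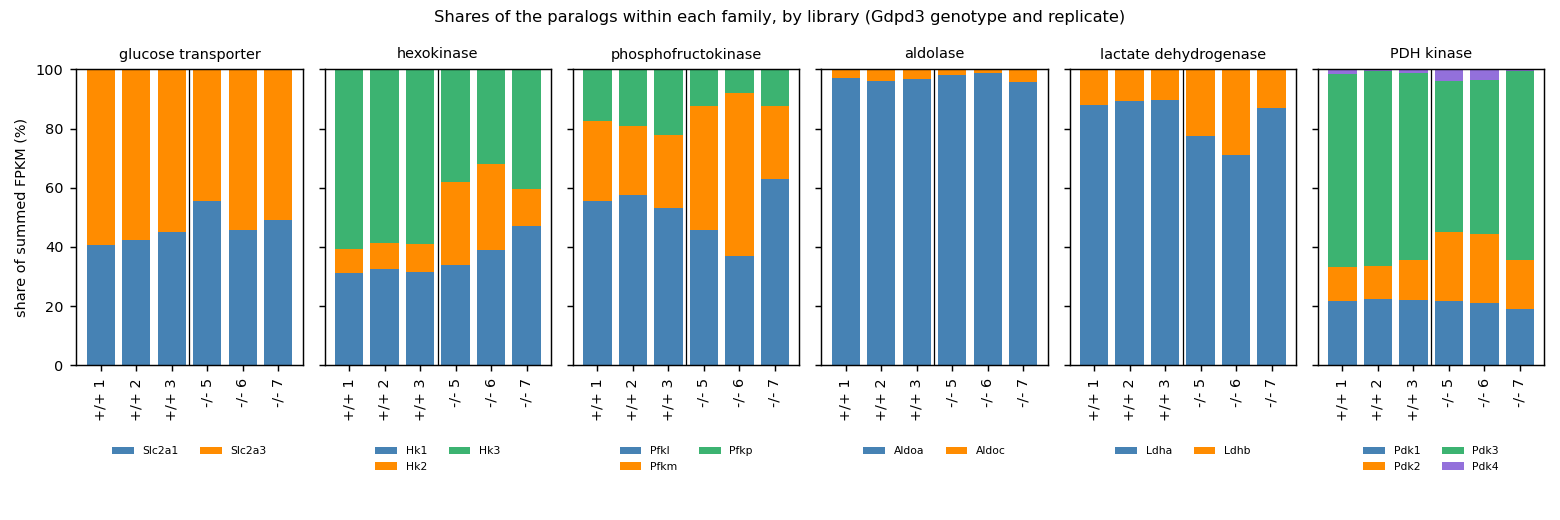
Share (%) of each paralog in the summed FPKM of its family in each library, with *Gdpd3*+/+ replicates 1, 2 and 3 left and *Gdpd3*-/- replicates 5, 6 and 7 right of the line in each panel. The *Hk3* share was lower and the *Hk2*, *Ldhb* and *Pdk2* shares were higher in all 3 *Gdpd3*-/- libraries, while the *Pfkm* share of replicate 7 lay within the *Gdpd3*+/+ range.

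At the gate between pyruvate and the TCA cycle, *Pdk2* was higher in all 3 *Gdpd3*-/- libraries, whereas the most abundant kinase, *Pdk3*, and both subunits of the enzyme were not. *Pdk2*, the widely expressed pyruvate dehydrogenase kinase, had 10.8, 9.72 and 11.1 FPKM in *Gdpd3*+/+ and 20.3, 19.8 and 15.0 FPKM in *Gdpd3*-/- libraries (log2 fold change 0.79, SE 0.16, adjusted p = 0.0616). It was called higher when the test was limited to a mean FPKM of at least 1 (3.12% of all genes), in TPM and without *Gdpd3*-/- replicate 7, and under the other 13 alternatives its adjusted p was 0.0562 to 0.264. *Pdk3* had 60.6, 57.7 and 52.3 FPKM against 44.6, 44.7 and 57.0 FPKM, which overlapped through replicate 7, and its log2 fold change of −0.23 turned to 0.05 in TPM. *Pdk1*, a known HIF target, had 18.2 to 20.2 FPKM against 16.9 to 19.0 FPKM, also overlapping, and its log2 fold change of −0.10 turned to 0.18 in TPM.

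*Pdk4*, the starvation-responsive form of muscle and heart, was the least abundant of the 32 genes, at 0.558 to 1.56 FPKM in *Gdpd3*+/+ libraries. It had 3.51, 3.12 and 0.646 FPKM in replicates 5, 6 and 7, so replicate 7 lay among the *Gdpd3*+/+ libraries, and the log2 fold change of 0.95 had a 95% interval of −0.70 to 2.61. With replicate 7 as the 1 *Gdpd3*-/- library it was −0.51. The *Pdk2* share of the 4 kinases was 12.1% ± 1.23 in *Gdpd3*+/+ and 21.0% ± 3.68 in *Gdpd3*-/- libraries, without overlap, and the *Pdk3* share was 64.8% ± 1.35 against 55.6% ± 6.97, with overlap (exact permutation tests, p = 0.1 and 0.2, n = 3 each).

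The catalytic part of the complex is built of *Pdha1* and *Pdhb* subunits. *Pdha1*, the subunit that the kinases phosphorylate, had 38.2, 36.3 and 36.4 FPKM in *Gdpd3*+/+ and 26.6, 33.9 and 33.0 FPKM in *Gdpd3*-/- libraries (log2 fold change −0.25, SE 0.12, adjusted p = 0.274), a difference that turned to 0.02 in TPM. It was below *Gdpd3*+/+ in all 3 libraries, and 16.0% of its exon bases overlap an antisense gene. *Pdhb* was the more abundant, at 112, 110.1 and 111 FPKM and 99.1, 135 and 100.4 FPKM, and overlapped. Its log2 fold change of −0.01 (95% interval −0.34 to 0.32) turned to 0.27 in TPM.

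In the TCA cycle the malate dehydrogenases and the succinate-CoA ligase subunits lay above every *Gdpd3*+/+ library in FPKM. The other 4 genes did not. With TMM scaling only *Mdh1* lay above every *Gdpd3*+/+ library, and with quantile normalization *Sucla2* no longer did. In TPM *Fh1* did as well. *Mdh2*, the mitochondrial malate dehydrogenase, was the most abundant of the group, with 137, 143 and 134 FPKM in *Gdpd3*+/+ and 210.5, 231 and 159 FPKM in *Gdpd3*-/- libraries (log2 fold change 0.52, SE 0.15, adjusted p = 0.111). *Mdh1*, its cytosolic partner in the malate-aspartate shuttle, had 115, 119 and 113 FPKM and 186, 208 and 141 FPKM (log2 fold change 0.61, SE 0.15, adjusted p = 0.0912). In both, replicate 6 was highest and replicate 7 lowest of the *Gdpd3*-/- libraries.

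*Suclg1*, the subunit shared by both forms of succinate-CoA ligase, had 35.2, 34.8 and 37.3 FPKM in *Gdpd3*+/+ and 51.4, 52.3 and 42.5 FPKM in *Gdpd3*-/- libraries (log2 fold change 0.44, SE 0.11, adjusted p = 0.0951). *Sucla2*, the subunit of the ATP-forming ligase, had 29.8, 30.1 and 26.3 FPKM and 32.6, 41.1 and 31.2 FPKM (log2 fold change 0.27, SE 0.14, adjusted p = 0.290), and its 95% interval of −0.05 to 0.60 included 0. The order 6, 5, 7 over the *Gdpd3*-/- libraries was the same for both genes.

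The other 4 genes of the cycle overlapped between genotypes in FPKM. *Cs*, the citrate synthase that opens the cycle, had 77.4 to 90.4 FPKM against 68.5 to 93.4 FPKM, with a log2 fold change of −0.07 (95% interval −0.40 to 0.26). *Idh3a*, a subunit of the NAD-dependent isocitrate dehydrogenase, had 59.2 to 67.8 FPKM against 50.8 to 70.8 FPKM, and its 95% interval was −0.36 to 0.36. *Ogdh*, of the oxoglutarate dehydrogenase complex, had 44.5 to 47.3 FPKM against 34.6 to 52.0 FPKM with an interval of −0.46 to 0.30. For all of these the sign was negative in FPKM and positive in TPM. *Fh1*, the fumarase, had 21.8 to 25.0 FPKM against 22.9 to 30.4 FPKM, and its log2 fold change of 0.17 (95% interval −0.16 to 0.50) turned to −0.02 after TMM scaling.

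Because the *Gdpd3*-/- libraries did not lie together, replicates 5 and 6 were set apart from replicate 7. In 9 of the 32 genes the values ran replicate 6, replicate 5, replicate 7 and then every *Gdpd3*+/+ library, an order held by 18 of 18 muscle markers and by 7.51% of all genes tested. Without replicate 7, 10 genes of the list were called higher (*Hk2*, *Pfkm*, *Aldoa*, *Tpi1*, *Gapdh*, *Ldhb*, *Pdk2*, *Suclg1*, *Mdh1* and *Mdh2*), where 9.83% of all genes were. *Hk3* and *Pgam1* were called lower, where 4.36% of all genes were. With replicate 7 as the 1 *Gdpd3*-/- library, none of the 32 was called higher (8.42% of all genes were) and *Hk3* was called lower (1.77% of all genes were), a comparison added after the data had been seen.

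The excess of a gene over its *Gdpd3*+/+ mean was set beside that of the muscle markers. Of the list, only genes with every *Gdpd3*-/- library above every *Gdpd3*+/+ library were taken. A positive excess in replicate 7 was therefore fixed by that choice. The muscle markers were summed here without *Eno3*, *Pygm* and *Pgam2*, which left 15. For this sum, the excess of replicate 7 was 7.35% and that of replicate 5 was 67.6% of that in replicate 6. Among the 16 genes above every *Gdpd3*+/+ library, *Ldhb* (8.79% and 63.3%) and *Aldoa* (11.0% and 72.9%) lay nearest to these figures. *Gapdh* (14.4% and 63.4%) and *Pfkm* (14.6% and 42.9%) came next. Larger parts of the excess were present in replicate 7 for *Sucla2* (19.7%), *Hk2* (21.3%), *Mdh2* (23.1%), *Ldha* (25.9%), *Mdh1* (27.1%), *Tpi1* (32.5%), *Suclg1* (40.5%), *Pdk2* (48.4%), *Slc2a1* (51.4%) and *Pgk1* (61.6%). For *Aldoc* (219%) and *Pfkl* (298%) replicate 7 exceeded replicate 6. The summed FPKM of all genes tested was lower in every *Gdpd3*-/- library (651641 to 685539) than in every *Gdpd3*+/+ library (787393 to 825843). Their median difference from the *Gdpd3*+/+ libraries was above 0 in FPKM and depends on scaling. On log2(FPKM + 0.1) it was 0.17 in replicate 5, 0.09 in replicate 6 and 0.21 in replicate 7. In replicate 7 the same difference was 0.23 for *Tpi1*, 0.21 for *Mdh2*, 0.25 for *Suclg1*, 0.25 for *Slc2a1* and 0.26 for *Pgk1*, near the all-gene median of 0.21. Below it were *Gapdh* (0.16), *Sucla2* (0.12) and *Ldha* (0.04). Further above it were *Mdh1* (0.28), *Ldhb* (0.30), *Aldoa* (0.39), *Hk2* (0.49), *Pdk2* (0.51), *Pfkm* (0.53), *Aldoc* (0.69) and *Pfkl* (0.73). These percentages carry no test, and the part of muscle RNA in any of them was not tested.

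**Figure D4:**
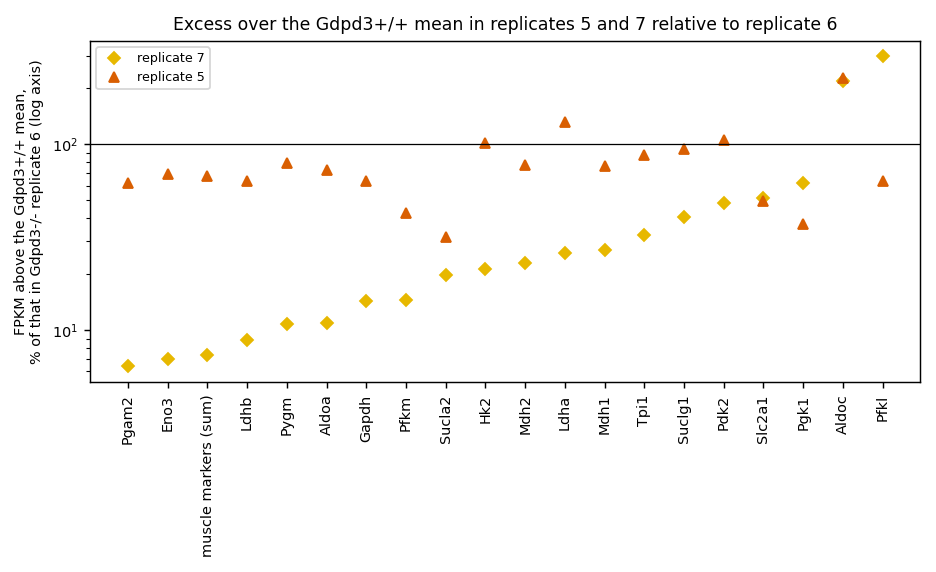
FPKM above the *Gdpd3*+/+ mean in *Gdpd3*-/- replicates 5 (triangles) and 7 (diamonds) as a percentage of that in replicate 6 (log axis). Shown are the 16 genes of the list above every *Gdpd3*+/+ library, *Eno3*, *Pgam2* and *Pygm*, and the sum of the other 15 muscle markers. Replicate 7 stands at 7.35% for the muscle markers, 8.79% for *Ldhb*, 11.0% for *Aldoa*, 48.4% for *Pdk2* and 298% for *Pfkl*.

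Around the 32 genes, 81 further genes of the same and adjoining pathways were read from the same fit. Of the 77 that could be tested, *Pck2* was called higher and none was called lower, 15 and 10 had an unadjusted p under 0.05 in the higher and lower direction (16.5% and 5.76% of all genes), and the median log2 fold change was −0.01. The call of *Pck2* was lost without *Gdpd3*+/+ replicate 1, where no gene was called, and without replicate 2, where none was called higher. Without *Gdpd3*-/- replicate 7, 14 of the 77 were called higher and 7 lower, where 9.83% and 4.36% of all genes were. *Pck2*, the mitochondrial phosphoenolpyruvate carboxykinase, had 26.4, 28.4 and 26.7 FPKM in *Gdpd3*+/+ and 47.3, 41.6 and 39.2 FPKM in *Gdpd3*-/- libraries (log2 fold change 0.65, SE 0.11, adjusted p = 0.0466). *Pkm*, which encodes the pyruvate kinase that ends glycolysis, had 369 to 408 FPKM against 382 to 432 FPKM and overlapped, and its log2 fold change of 0.09 changed sign after TMM and quantile scaling.

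Among the forms known from muscle, *Pygm*, the glycogen phosphorylase, had 8.73, 5.70 and 6.48 FPKM in *Gdpd3*+/+ and 42.8, 52.3 and 11.9 FPKM in *Gdpd3*-/- libraries. *Slc2a4*, the insulin-responsive glucose transporter GLUT4, had 1.26, 0.950 and 0.524 FPKM and 6.72, 8.98 and 1.28 FPKM. Both were far higher in replicates 5 and 6 than in replicate 7, and neither was called (adjusted p = 0.0952 and 0.153 in limma's test). In each of the lists of other glycolysis genes (16 tested), pyruvate carriers and pyruvate dehydrogenase (15 tested), other TCA cycle genes (14 tested) and regulators (12 tested), no gene was called. Without replicate 7 the genes called higher and lower were 4 and 1, 3 and 2, 3 and 0, and 1 and 1 in these lists. *Hif1a* itself overlapped, at 12.5 to 14.9 FPKM against 5.66 to 14.3 FPKM.

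Sequences shared between genes limit some of these values. Pseudogenes at least 90% identical to a transcript over 300 bases or more are annotated in GENCODE M21 for 12 of the 32 genes, with 184 for *Gapdh*, 17 for *Ldha*, 7 for *Eno1* and 5 for *Aldoa*, and reads may be split between copies. Of the 21 genes whose libraries did not overlap between the genotypes, 11 had no such copy, among them *Hk2*, *Hk3*, *Pfkm*, *Aldoc*, *Pdk2*, *Suclg1*, *Mdh1* and *Mdh2*.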

How the data were processed

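FPKM values of 36976 genes in 6 libraries were used as deposited by the authors, who prepared full-length cDNA by SMART-Seq v4 and Nextera XT, which mark no strand, and sequenced paired-end reads of 150 bases. The submitters' processing notes name STAR 2.6.1a, featureCounts 1.6.1, cutadapt 1.16, Trim Galore, Trimmomatic, DESeq2 and the mm9 build. The authors' DESeq2 table (base mean, fold change with its error, Wald score and p-values) was not used. Depth was inferred for each library as the scale at which FPKM times gene length became whole, and was taken as covered bases. Counts were not recovered, so no count model was run, and read numbers, as covered bases divided by 150, are approximate.

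Genes whose FPKM averaged 0.05 or more (24689) were tested on log2(FPKM + 0.1) with limma 3.58.1 in R 4.3.3, using an intensity trend and genotype alone. P-values were adjusted by Benjamini-Hochberg over these genes and called at 0.05. Fold changes on this scale understate those of low genes. The script was tested on simulated data in which both groups had the spread of the *Gdpd3*+/+ libraries. That test did not cover the larger spread of the *Gdpd3*-/- libraries. Exact permutation tests (two-sided, 20 assignments) used SciPy 1.17.1 in Python 3.11.15. As alternatives, the pseudocount was set to 0.01 or 1, the filter was dropped or raised to 1, libraries were rescaled by TMM (trimming 30% of M and 5% of A), by quantiles or to TPM, the trend was dropped, arrays were weighted, and each library was left out in turn. The fit with *Gdpd3*-/- replicate 7 alone was chosen after seeing the data.

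Values in all libraries are given for *Pfkm* and *Aldoa*, for genes called or without overlap between genotypes, and for the most abundant of each family and role. Of the surrounding lists, genes called and *Eno3*, *Pgam2*, *Pygm* and *Slc2a4* are named, and any other was picked with its values in view. The members and lists were chosen with earlier results of these data known. Symbols matched GENCODE M21 by identifier for 32350 of 36976 genes. Promoters are RefSeq sequences in GRCm38.p6, matched by symbol for 30 of the 32 genes (not *Slc2a3* and *Idh3a*), and they were not joined to the mm9 positions of the table.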

Additional observations from a re-analysis of the deposited data

How the results depend on the processing

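All 32 genes were uncalled in the main fit, and 19 kept the sign of their log2 fold change under all 16 alternatives. The number of all genes called was 422 (270 higher and 152 lower), and it became 225 (124 and 101) at pseudocount 1, 213 (125 and 88) unfiltered, 673 (471 higher) at a mean FPKM of at least 1, 153 (79 and 74) when no trend was used, 240 (124 higher) with array weights, 3962 (3708 and 254) in TPM, 2294 (1896 and 398) with *Gdpd3*-/- replicate 7 alone, and with a library left out 0 (without *Gdpd3*+/+ replicate 1) to 3413 (without *Gdpd3*-/- replicate 7), the ranges being 0 to 2364 for higher and 0 to 1049 for lower. The calls moved from mostly higher to mostly lower with TMM scaling (118 higher, 232 lower) and quantile normalization (119 higher, 206 lower). Without *Gdpd3*+/+ replicate 2 or 3, or *Gdpd3*-/- replicate 5, 1, 21 and 187 genes were called, and the cause was not tested. Of the 32 genes, 1 (*Hk3*, lower) was called with a pseudocount of 0.01, TMM scaling, quantile normalization or *Gdpd3*-/- replicate 7 alone, 2 (*Pdk2* higher, 1; *Hk3* lower, 1) at a mean FPKM of at least 1, and 14, all higher, in TPM. With a library left out, 0 to 12 were called, 0 to 10 higher and 0 to 2 lower (*Hk3* also without *Gdpd3*-/- replicate 6). Genes of the list without overlap numbered 7 higher and 9 lower with TMM scaling (15.3% and 14.5% of all genes) and 1 lower in TPM (3.85%). With a library left out 5 to 8 were lower. The share of all genes was not computed there, so that count is no result about the list. The median log2 fold change of the list was 0.036 (TMM), 0.091 (quantile), 0.51 (TPM) and 0.21 to 0.31 with a library left out. For all genes it was 0.15 at pseudocount 1, 0.14 for a mean FPKM of at least 1, 0.064 (TMM), −0.0063 (quantile) and 0.50 (TPM). The *Pfkp* share differed by −8.67 percentage points on FPKM and by −13.3 on FPKM times gene length. The sign changed in TPM for *Slc2a3* (0.16), *Pfkp* (0.038), *Pdk1* (0.18), *Pdk3* (0.048), *Pdha1* (0.022), *Pdhb* (0.27), *Cs* (0.21), *Idh3a* (0.28) and *Ogdh* (0.20), with TMM for *Hk1* (−0.0036), *Ldha* (−0.066) and *Fh1* (−0.021), and with quantile normalization for *Ldha* (−0.050). It changed with replicate 7 alone for *Pdk3* (0.0053), *Pdk4* (−0.51), *Idh3a* (0.17) and *Ogdh* (0.18), and for *Idh3a* with a pseudocount of 1 (9.14e-05) and under array weights (0.028). With a library left out it ran from −0.31 to 0.075 for *Slc2a3*, −0.16 to 0.068 for *Pdhb*, −0.20 to 0.028 for *Cs*, −0.085 to 0.15 for *Idh3a* and −0.21 to 0.084 for *Ogdh*, with the highest value without *Gdpd3*-/- replicate 5 in each. None of these reversed values was called. No paired analysis was possible because no replicate number occurs in both genotypes. Count-based alternatives were not run because counts were not recovered. *Gdpd3*-/- libraries were shallower and varied more, and the smallest difference detectable with 3 libraries a genotype is not given here.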

Other observations

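The pentose phosphate pathway, which branches from glycolysis after hexokinase and supplies NADPH and ribose, was read from a list of 8 genes. None was called in limma's test (2 lower without *Gdpd3*-/- replicate 7), and 4 had an unadjusted p under 0.05, all lower in *Gdpd3*-/-. The same 4 lay below every *Gdpd3*+/+ library, where 8.27% of all genes did. *G6pdx*, the rate-limiting dehydrogenase, had 69.9, 66.1 and 67.6 FPKM in *Gdpd3*+/+ replicates 1, 2 and 3 and 51.0, 42.6 and 49.3 FPKM in *Gdpd3*-/- replicates 5, 6 and 7 (log2 fold change −0.51, SE 0.10, adjusted p = 0.0626). *Pgd*, the second dehydrogenase, had 22.8, 23.3 and 25.2 FPKM and 14.2, 13.3 and 17.9 FPKM (log2 fold change −0.66, SE 0.14, adjusted p = 0.0751). *Rpe* and *Tkt* were the others, with log2 fold changes of −0.59 and −0.27, the latter of which changed sign in TPM. Neutrophil markers were lower in the same libraries, and their part in these values was not tested.

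Of 15 genes tested for pyruvate carriers and the pyruvate dehydrogenase complex, 2 (*Mpc1* and *Mpc2*) held the order replicate 6, 5, 7 above every *Gdpd3*+/+ library, and of 14 other TCA cycle genes 3 did (*Idh3b*, *Sdhb* and *Sdhc*), next to 7.51% of all genes. *Mpc2*, a subunit of the pyruvate carrier, had 17.2, 18.3 and 17.8 FPKM in *Gdpd3*+/+ and 61.0, 67.0 and 23.4 FPKM in *Gdpd3*-/- libraries (log2 fold change 1.36, SE 0.38, adjusted p = 0.110). *Sdhb*, the iron-sulphur subunit of succinate dehydrogenase, had 87.2, 82.9 and 81.6 FPKM and 227, 300.5 and 121 FPKM (log2 fold change 1.27, SE 0.31, adjusted p = 0.0891). *Slc16a1*, which encodes the monocarboxylate transporter MCT1, had 33.4, 33.6 and 28.8 FPKM and 10.2, 12.3 and 31.4 FPKM, so replicates 5 and 6 lay below every *Gdpd3*+/+ library and replicate 7 lay among them. The genes given here with values were chosen for display after their values had been seen.

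Of 13 HIF targets outside glycolysis, none was called in limma's test. An unadjusted p under 0.05 was reached by 4 higher and 2 lower, next to 16.5% and 5.76% of all genes. Above every *Gdpd3*+/+ library lay 5 and below 2, next to 23.5% and 8.27% of all genes. Without replicate 7, 1 was called higher and 1 lower. The median log2 fold change of the 13 was 0.42, next to 0.24 over all genes tested. Other marker lists were read beside the members. Of 10 B and plasma cell markers, 2 were called lower, and none of 9 erythroid markers (the tenth, Ahsp, was not found under that name) or 6 megakaryocyte markers was called. Without replicate 7, 1 B and plasma cell marker was called higher and 4 lower, 3 erythroid markers were called lower, and no megakaryocyte marker was called.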
